A study of Homo sapiens with 4 samples.

Results

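The endothelin system is encoded by 7 genes, and these 7 of the 37515 genes in a table of read counts from Caco-2 cells are described here. They are the ligand genes EDN1, EDN2 and EDN3, the receptor genes EDNRA and EDNRB, and the converting enzyme genes ECE1 and ECE2. The set was selected on the change of EDN3 between the conditions compared below, and the other members were added because they belong to the same system. The level, the change and the call of each member are therefore given as a description, and a member's call is not a test of it. All 7 genes had a row in the table.

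Caco-2 is a human colorectal carcinoma line that forms a polarized, enterocyte-like layer in culture. RNA-seq was performed on 4 libraries from such layers, grown on transwells in MEM medium for 15 days. In 2 libraries the cells had received 60 ng/ml interferon gamma (IFNγ) in the basal compartment for 3 h, and in 2 libraries the cells were unstimulated and collected at 0 h. The labels give medium as the control treatment, so what IFNγ did and what 3 h of further culture did cannot be told apart. All 4 libraries are labelled WT and come from 1 cell line, and the labels do not say whether same-condition libraries are separate cultures, so the spread between them may be technical.

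Endothelins are short vasoactive peptides. Each is cut from a longer precursor by furin-like proteases to an inactive intermediate, big endothelin, which the membrane metalloproteases ECE1 and ECE2 then cleave to the active peptide. The peptides act on G protein-coupled receptors. EDNRA prefers the first 2 endothelins over endothelin-3, whereas EDNRB binds all of them alike. Endothelin-1 is best known as a constrictor of blood vessels made by endothelium. Endothelin-3 and EDNRB are best known in the gut for guiding neural crest cells that form the enteric nervous system, and loss of either gene can cause Hirschsprung disease.

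The stretch of each ligand gene that codes for the active peptide shows how close the 3 genes are at the sequence that defines the family, and it is printed 5′ to 3′ in the sense of the gene with the codons of the cysteines that form its disulfide bonds in capitals.
EDN1: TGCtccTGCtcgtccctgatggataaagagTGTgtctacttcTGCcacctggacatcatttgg
EDN2: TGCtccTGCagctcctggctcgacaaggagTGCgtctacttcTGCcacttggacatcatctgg
EDN3: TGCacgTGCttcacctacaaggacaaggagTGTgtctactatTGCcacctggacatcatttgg
These 63 bases lie in exon 2 of a transcript of 5 exons in each gene, in the coding sequence. On GRCh37 they are at chr6:12292666-12292728 on the plus strand for EDN1, at chr1:41949732-41949794 on the minus strand for EDN2 and at chr20:57876701-57876763 on the plus strand for EDN3. EDN1 and EDN2 shared 51 of the 63 bases (81.0%), EDN1 and EDN3 shared 50 (79.4%), and EDN2 and EDN3 shared 48 (76.2%). In the encoded peptides, EDN1 and EDN2 shared 19 of 21 residues, whereas each of them shared 15 with EDN3. No exon of the 3 ligand genes overlapped an exon of another annotated gene.

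The libraries held 7171455 to 10365346 counts, so that 1 CPM (counts scaled to a common library size, with TMM factors) stood for 7.16 to 10.3 reads. Genes with low counts were removed with the default filter of edgeR, which left 14820 genes, and EDN2 and EDNRA were below it. Of a list of 10 genes that IFNγ is known to induce, used to check the labels, 7 were higher after IFNγ by the call defined below and all 10 had a positive log2 fold change. The enterocyte markers VIL1, CDH1, EPCAM, KRT20, FABP1, ALPI, SI, APOA1, APOA4 and CDX2 were all above the filter, with 68295 to 107252 counts summed per library. Among them CDX2 was called higher (177 ± 0.411 CPM before and 406 ± 2.41 CPM after, SD, n = 2 each) and SI was called lower (log2 fold change = -1.13). Markers of endothelium, neural crest, fibroblasts and smooth muscle, and immune cells were looked up as well. The endothelial markers KDR and TEK were at 0 in every library, and the 7 endothelial markers with a row summed to 34 to 57 counts, mostly from ESAM and VWF. SOX10, which defines neural crest cells and glia, was at 0 in every library, although ERBB3 of the same list had 4939 to 8217 counts. The smooth muscle marker ACTA2 was at 0 in every library, and the 6 fibroblast and smooth muscle markers summed to 698 to 1966 counts, nearly all from COL1A1. The 5 immune markers summed to 39 to 43 counts in the unstimulated libraries and 73 to 77 after IFNγ, mostly from CD14, and PTPRC had 0 to 2.

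Calls were made over all 14820 genes with edgeR's quasi-likelihood test. They required an adjusted p (Benjamini-Hochberg) below 0.05 and a log2 fold change beyond 1 in either direction. Of the 5 endothelin system genes above the filter, EDN3 alone was called, in the direction for which it had been chosen. Among all tested genes 7.28% were called, 2.88% higher and 4.40% lower. With each library's trend of GC content and length removed, the numbers over all genes were 391 higher and 346 lower, in place of 427 and 652. On the adjusted p alone, 3 of the 5 members passed (EDN3 and ECE1 higher, EDNRB lower), against 20.0% of all tested genes. Since the contrast was used in the choice of the genes, nothing is read from these shares. The median log2 fold change was 0.51 over the 5 members and -0.01 over all tested genes.

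**Figure D1:**
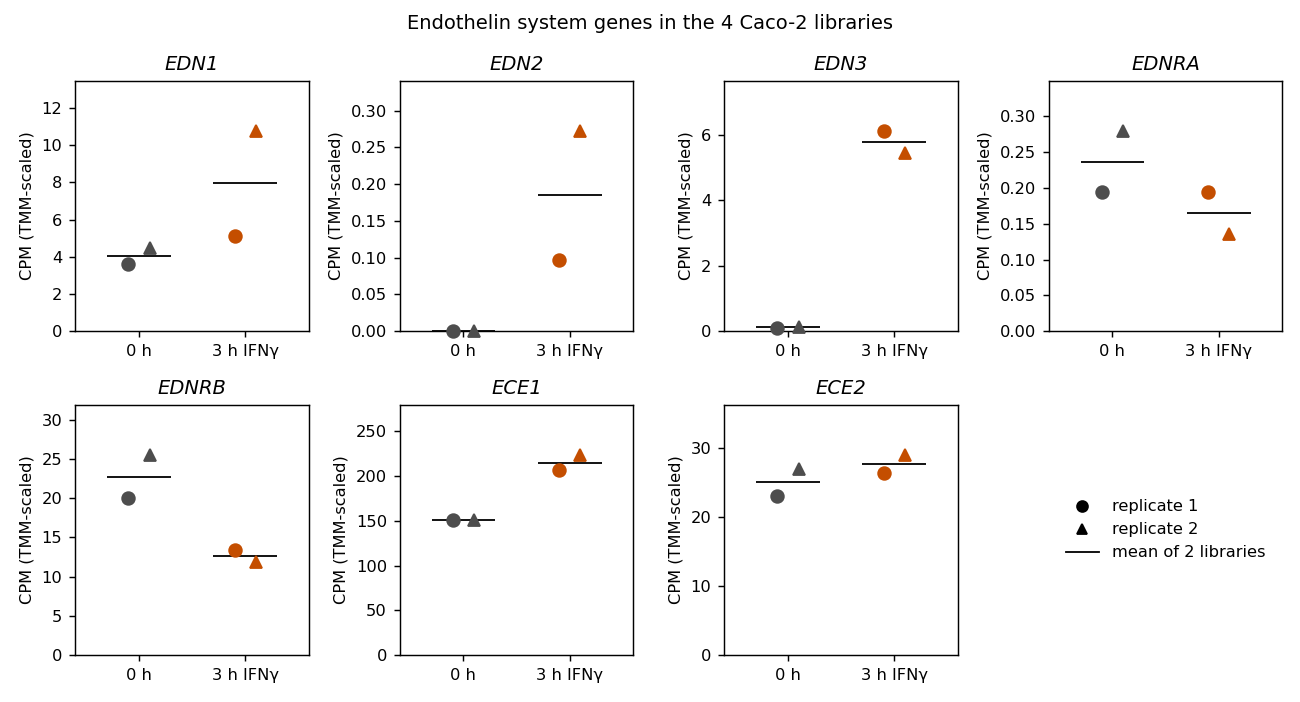
CPM of each endothelin system gene (y axis, TMM-scaled, from 0, with a different range per panel) in the unstimulated libraries at 0 h and the IFNγ libraries at 3 h (x axis). Each symbol is 1 library and each line is the mean of 2; EDN3 lies at 0.0970 and 0.140 CPM before and 6.11 and 5.44 after IFNγ, whereas the ranges of ECE2 overlap.

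Among the ligands, EDN3 was close to absent in unstimulated cells and was plainly counted after IFNγ. EDN3 (ENSG00000124205, chr20:57875498-57901047 on GRCh37, plus strand) had 1 count in each unstimulated library, and 63 and 40 counts in IFNγ replicates 1 and 2. The levels were 0.118 ± 0.0302 CPM before and 5.78 ± 0.470 CPM after IFNγ (SD, n = 2 each). Both IFNγ libraries were far above both unstimulated ones, and the unstimulated counts were below the 3 counts taken as the floor of detection.

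From the summed counts of 2 before and 103 after, scaled for library size, EDN3 was 50.9-fold higher, with an exact 95% interval of 13.7 to 426 that covers counting error only. The fitted log2 fold change was 5.49 (SE = 0.51). Both replicate pairs moved alike, with log2 differences of 4.29 in the pair numbered 1 and 3.95 in the pair numbered 2, calculated with a prior count of 2, which pulls low values together. EDN3 passed the filter on low counts only through the IFNγ libraries. Under a filter of at least 10 counts in every sample it was therefore not tested, and DESeq2's default filtering gave it no adjusted p.

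EDN1, the most widely made endothelin, was counted in every library. EDN1 (ENSG00000078401, chr6:12290594-12297427, plus strand) had 37 and 32 counts before and 53 and 79 counts after IFNγ, or 3.59 and 4.47 CPM before and 5.14 and 10.8 CPM after. The lower IFNγ library lay just above the higher unstimulated one, so the groups did not overlap, but the gap between the IFNγ libraries was wider than their gap to the unstimulated ones. EDN1 was not called, with a log2 fold change of 0.96 (SE = 0.39). The estimate rests on IFNγ replicate 2: without it the log2 fold change was 0.34, and without IFNγ replicate 1 it was 1.41 and EDN1 was called. The pairs differed likewise, with 0.49 for the pair numbered 1 and 1.22 for the pair numbered 2. With the replicate number as a block the log2 fold change was 0.90, and EDN1 passed on the adjusted p but not the fold limit.

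EDN2, which is mainly known from the intestine and the ovary, was not detectable at this depth. EDN2 (ENSG00000127129, chr1:41944446-41950354, minus strand) had 0 counts in both unstimulated libraries, and 1 and 2 counts after IFNγ. A count of 0 allows a level of up to 0.291 CPM in unstimulated replicate 1 and up to 0.419 CPM in replicate 2, and the IFNγ counts were under the same floor of 3 counts, so no fold is given.

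The make-up of the ligand reads changed with these levels. EDN3 made up 2.63% of the 38 reads counted on the 3 ligand genes in unstimulated replicate 1 (exact 95% interval 0.0666% to 13.8%) and 3.03% of 33 in replicate 2 (0.0767% to 15.8%). After IFNγ it made up 53.8% of 117 reads in replicate 1 (44.4% to 63.1%) and 33.1% of 121 reads in replicate 2 (24.8% to 42.2%). These intervals cover counting error within a library and are not a comparison of the conditions, which the choice of EDN3 had used. Per kb of merged exons, EDN1 was 1.36 and 3.19 times the level of EDN3 in the IFNγ libraries. No such ratio is given for the unstimulated libraries, where EDN3 was under the floor.

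**Figure D2:**
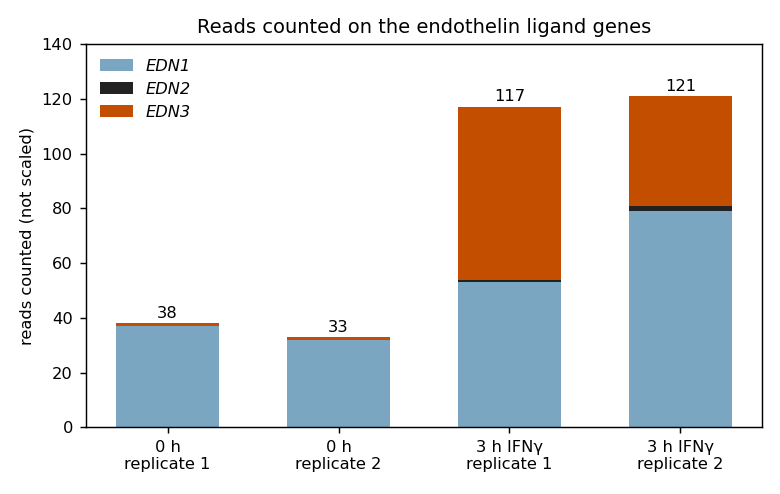
Reads counted on EDN1, EDN2 and EDN3 in each library (stacked bars, y axis in reads from 0, not scaled for library size), with the sum above each bar. The sums are 38 and 33 in the unstimulated libraries and 117 and 121 after IFNγ, where EDN3 adds 63 and 40 reads.

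Of the receptors, EDNRB carried nearly all the reads in every library, and its level was lower after IFNγ. EDNRB (ENSG00000136160, chr13:78469616-78549664, minus strand) had 206 and 183 counts before and 138 and 87 counts after IFNγ. The levels were 22.8 ± 3.95 CPM before and 12.6 ± 1.09 CPM after (SD, n = 2 each). Both IFNγ libraries were below both unstimulated ones, as was the case within each pair, with log2 differences of -0.57 and -1.10. The share of all tested genes that separate in this way is not given here. With 2 libraries per condition, the separation of EDNRB, like that of EDN1 and ECE1, is description only.

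EDNRB was not called, since its log2 fold change of -0.84 (SE = 0.19) did not reach the fold limit. Without unstimulated replicate 1 it was -1.01, and EDNRB was called. Over 14518 tested genes whose GC content was known, the log2 fold change rose with it (Spearman rho = 0.431, across genes, which are not independent replicates). EDNRB has the lowest GC content of the members, 39.3%, and with the trend of GC content and length removed its log2 fold change was -0.49, still below 0. EDNRB did not pass on the adjusted p there, nor without unstimulated replicate 2 (-0.66), but it passed with the trend removed and the replicate number as a block (-0.48). The share of the GC trend in the EDNRB value was not tested further. Exons of EDNRB overlap the long noncoding RNAs ENSG00000233379 on the same strand over 124 bases and OBI1-AS1 on the opposite strand over 80 bases. Those genes had 3 to 15 and 4 to 11 counts per library.

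EDNRA, the receptor of vascular smooth muscle, was not detectable at this depth. EDNRA (ENSG00000151617, chr4:148402069-148466106, plus strand) had 2 counts in each unstimulated library, and 2 and 1 after IFNγ, all below the floor of 3 counts, so no fold is given. EDNRB accordingly made up 98.6% to 99.0% of the reads on the 2 receptor genes in the 4 libraries, with lower bounds of 93.8% to 96.6% (exact 95% intervals). The unscaled receptor reads went from 208 and 185 in the unstimulated libraries to 140 and 88 after IFNγ, while the ligand reads went from 38 and 33 to 117 and 121.

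The converting enzyme genes were the most highly expressed part of the system. ECE1 (ENSG00000117298, chr1:21543740-21672065, minus strand), the main protease that releases active endothelin, had 1559 and 1083 counts before and 2128 and 1645 counts after IFNγ. The levels were 151 ± 0.0525 CPM before and 215 ± 12.4 CPM after (SD, n = 2 each). The unstimulated libraries were almost equal, and both IFNγ libraries were above them. ECE1 was not called, since its log2 fold change of 0.51 (SE = 0.11), or 1.42-fold, was under the fold limit. The pairs gave 0.45 and 0.56, and the log2 fold change ranged from 0.42 to 0.55 with each library left out. It was 0.32 with the GC and length trend removed, where ECE1, with a GC content of 58.5%, no longer passed on the adjusted p, although it passed there with the replicate block. Of the fits with 1 library left out, ECE1 passed on it only without IFNγ replicate 1. ECE1-AS1, an antisense gene that overlaps ECE1 exons over 240 bases, had 0 to 4 counts.

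ECE2 (ENSG00000145194, chr3:183993799-184010819, plus strand), a related protease that works at acidic pH, had 238 and 193 counts before and 272 and 213 counts after IFNγ. The levels of 23.1 and 27.0 CPM before and 26.4 and 29.0 CPM after overlapped between the conditions, and the log2 fold change was 0.15 (SE = 0.16). Its exons share 2965 bases with the readthrough gene EEF1AKMT4-ECE2, which had no row in the table, so how the reads of these bases were assigned is not known. Per kb of merged exons, ECE1 was 4.2 and 3.6 times ECE2 in the unstimulated libraries and 5.1 and 5.0 times after IFNγ. The ratio was thus higher in both IFNγ libraries.

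**Figure D3:**
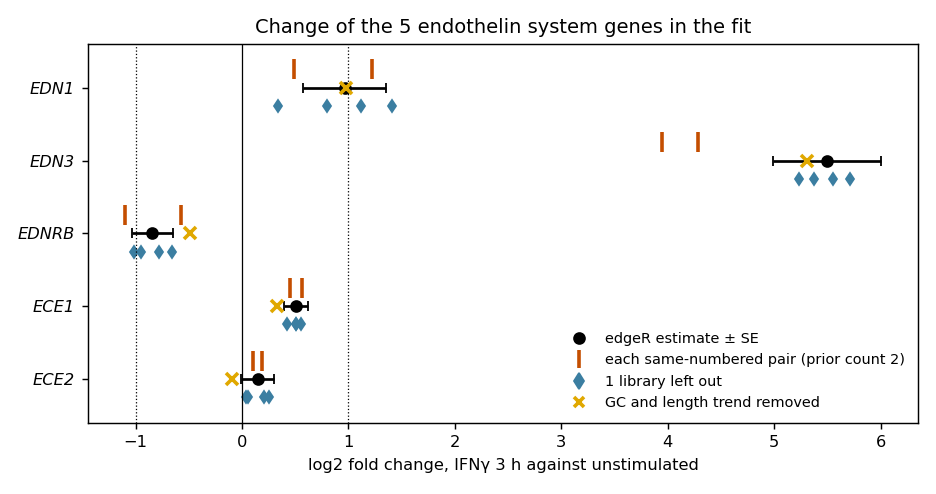
Log2 fold change of the 5 endothelin system genes above the filter (x axis, IFNγ 3 h against unstimulated, dotted lines at the fold limit of 1), as the edgeR estimate with its SE (black), within each same-numbered pair with a prior count of 2 (orange), with each library left out (blue) and with the GC and length trend removed (yellow). EDN3, at 5.49, lies beyond the fold limit by every measure shown, EDN1 spreads from 0.34 to 1.41 over the libraries left out, and ECE2 is near 0.

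On a per-length scale the system spanned a wide range within these cells. In CPM per kb of merged exons, the unstimulated order was ECE1 (20.7 ± 0.00718), ECE2 (5.29 ± 0.580), EDNRB (4.06 ± 0.704), EDN1 (1.98 ± 0.306), EDNRA (0.0559 ± 0.0143), EDN3 (0.0360 ± 0.00917) and EDN2 (0), each as mean ± SD of 2 libraries. After IFNγ the order was ECE1 (29.4 ± 1.70), ECE2 (5.85 ± 0.391), EDN1 (3.90 ± 1.95), EDNRB (2.25 ± 0.194), EDN3 (1.75 ± 0.143), EDN2 (0.112 ± 0.0751) and EDNRA (0.0389 ± 0.00965). EDN1 and EDNRB exchanged places, and EDN3 moved above EDNRA.

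Neighbours in these orders did not overlap in range between the libraries, with merged exons as the length. With the longest transcript instead, EDNRA and EDN3 overlapped in the unstimulated order, and EDN1 and EDNRB overlapped after IFNγ, so these neighbours do not differ beyond their spread. Counts of EDN2, EDNRA and, without IFNγ, EDN3 are under the floor, and their order among themselves carries no weight. Relative to the levels per kb of all tested genes, the mean of ECE1 stood at percentile 84.8 before and 88.8 after IFNγ. EDNRB stood at percentile 44.4 before and 32.7 after, and EDN3 at 0.138 and 27.6.

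**Figure D4:**
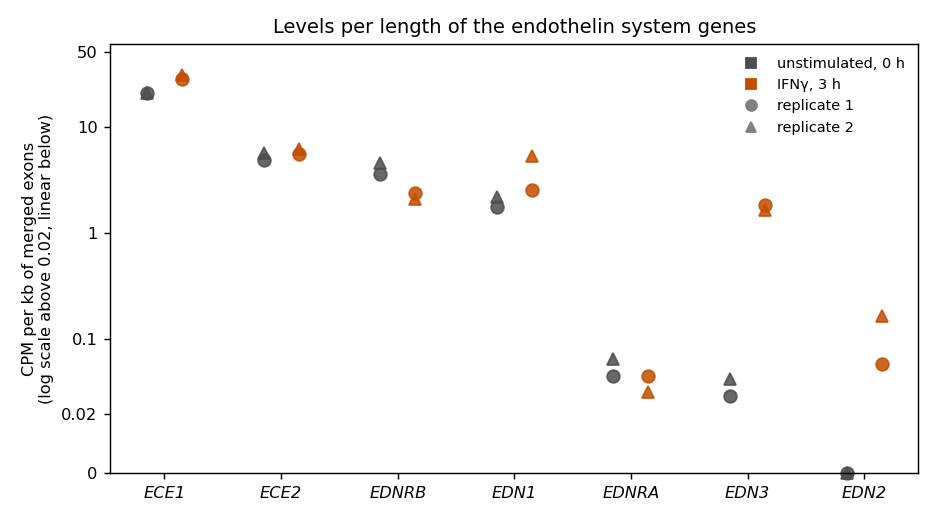
Level of each endothelin system gene per length (y axis, CPM per kb of merged exons, log scale above 0.02 and linear below) in the 2 unstimulated (grey) and 2 IFNγ (orange) libraries, ordered by the unstimulated mean. ECE1 is the highest in both conditions (20.7 and 29.4), and EDN3 lies at 0.0360 before and 1.75 after IFNγ.

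The genes of the whole table with the pattern most like that of EDN3 were found by the Euclidean distance of log2(CPM + 0.5) over the 4 libraries. The 5 nearest were NNMT (distance 0.74), STEAP4 (0.88), GBP5 (0.88), ADRA1D (0.90) and MT2A (0.94). NNMT methylates nicotinamide, STEAP4 reduces iron and copper at membranes, GBP5 is an interferon-induced GTPase, ADRA1D is an adrenergic receptor of smooth muscle and MT2A is a metal-binding metallothionein.

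NNMT had 0 and 2 counts before and 41 and 32 after IFNγ, and ADRA1D had 1 and 3 before and 38 and 31 after. STEAP4 had 0 counts in both unstimulated libraries and 87 and 64 after. All 5 genes were at 5 counts or fewer in each unstimulated library and at 23 or more in each IFNγ library. This follows from their choice by distance to EDN3 in the same libraries and is not a separate result. The same 5 genes, in another order, were nearest with a pseudocount of 1. Of the 9 annotated genes within 250 kb of EDN3, 2 had a row in the table, and neither reached 10 counts summed over the 4 libraries. ZNF831, a protein-coding gene 41.3 kb away, had 3 counts in all, and the pseudogene PIEZO1P1 had 0.

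The proteases that make and break endothelins were measured as a list of 11 genes. Of these, 8 were tested and none was called in edgeR's test, against 7.28% of all tested genes. On the adjusted p alone 1 gene passed, against 20.0% of all tested genes. That gene was FURIN, the protease of the first cleavage of the precursor, with 104 ± 5.58 CPM before and 174 ± 6.53 CPM after IFNγ (SD, n = 2 each). Its log2 fold change of 0.75 (SE = 0.11) was under the fold limit (adjusted p = 0.0054, edgeR). How far the GC trend enters this value was not tested. The most abundant genes of this list were CTSA, a lysosomal carboxypeptidase that degrades endothelin-1, and PCSK6, a furin-like protease. CTSA was at 558 CPM before and 650 CPM after, and PCSK6 at 188 and 237 CPM. In the 8 tested genes 6 log2 fold changes were positive and 2 negative, with a median of 0.24 against -0.01 over all tested genes. MME, or neprilysin, which also degrades endothelins, had 9 to 22 counts per library and a log2 fold change of -0.14 (SE = 0.43). The chymase CMA1, another source of endothelin peptides, was at 0 in every library, and KEL and MMP2 were too low to be tested.

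The genes that carry the signal of endothelin receptors to calcium release, and those that end it, formed a list of 27 genes. Of these, 23 were tested, 1 was called higher and 1 was called lower, against 2.88% and 4.40% of all tested genes. RGS2, which speeds the inactivation of Gq, was higher after IFNγ. It had 82 and 59 counts before and 256 and 161 after, and its log2 fold change was 1.53 (SE = 0.18, adjusted p = 0.0024, edgeR). RGS2 was called under every alternative run, with log2 fold changes from 1.42 to 1.69.

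PLCB4, a phospholipase C that Gq activates, was lower, with 62 and 33 counts before, 25 and 12 after and a log2 fold change of -1.37 (SE = 0.35, adjusted p = 0.032, edgeR). Its call was lost without unstimulated replicate 1 (-1.15) and without IFNγ replicate 2 (-1.16). It was also lost with the GC and length trend removed (-0.81) and in DESeq2 without independent filtering (-1.39, adjusted p = 0.10).

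On the adjusted p alone, 3 genes of this list were higher and 4 were lower, against 20.0% of all tested genes in either direction. The following were chosen after their values were seen. The Gq family genes went both ways: GNAQ was lower (log2 fold change = -0.94, SE = 0.17) and GNA11, its close relative, was higher (0.76, SE = 0.10). GNA11 had 213 ± 2.30 CPM before and 361 ± 1.80 CPM after IFNγ, whereas GNAQ had 221 and 161 counts before and 111 and 90 after. GNAQ was called without IFNγ replicate 2, and PRKCA without unstimulated replicate 2. PLCB1 (-0.66, SE = 0.12) and the protein kinase C gene PRKCA (-0.76, SE = 0.22) were lower, and ARRB1, the arrestin that binds activated receptors, was higher (0.58, SE = 0.11). Over all genes the log2 fold change rose with GC content, and the share of that trend in the values of these genes was not tested. The most abundant genes of the list were GNAS, the stimulatory G protein, at 1336 CPM before and 1497 CPM after, and the calcium channel gene ITPR3, at 424 and 443 CPM. Over the 23 genes, 10 log2 fold changes were positive and 13 negative, with a median of -0.05.

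Of 12 transcription factors known to act on the EDN1 promoter, 11 were tested and none was called in edgeR's test, against 7.28% of all tested genes. On the adjusted p alone 3 passed, against 20.0% of all tested genes. SMAD3, which carries the signal of TGF-beta, had 151 ± 15.6 CPM before and 78.0 ± 3.89 CPM after IFNγ (log2 fold change = -0.95, SE = 0.13). Its partner SMAD4 was lower as well (-0.83, SE = 0.15). RELA, a subunit of NFκB, had 58.5 ± 2.96 CPM before and 101 ± 1.18 CPM after (0.78, SE = 0.12). The share of the GC trend in these values was not tested. SMAD3 was called without unstimulated replicate 2 and without IFNγ replicate 1. The other 8 tested genes, among them JUN, FOS and HIF1A, did not pass on the adjusted p, and the median of the list was -0.22.

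Of 24 genes of other vasoactive peptide systems, 22 had a row, 12 were tested and none was called in edgeR's test, against 7.28% of all tested genes. On the adjusted p alone 2 passed, against 20.0% of all tested genes. VIPR1, a receptor of vasoactive intestinal peptide, was higher (log2 fold change = 0.69, SE = 0.13), and KNG1, the kininogen from which bradykinin is cut, was lower (-0.42, SE = 0.12). Whether the GC trend has a share in these values was not tested. AGT, the angiotensin precursor, was the most abundant, at 1065 CPM before and 1311 CPM after (0.30, SE = 0.11). NPPB, which codes for a natriuretic peptide, had 12 and 13 counts before and 26 and 25 after, and did not pass (1.0, SE = 0.41, adjusted p = 0.13, edgeR).

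**Figure D5:**
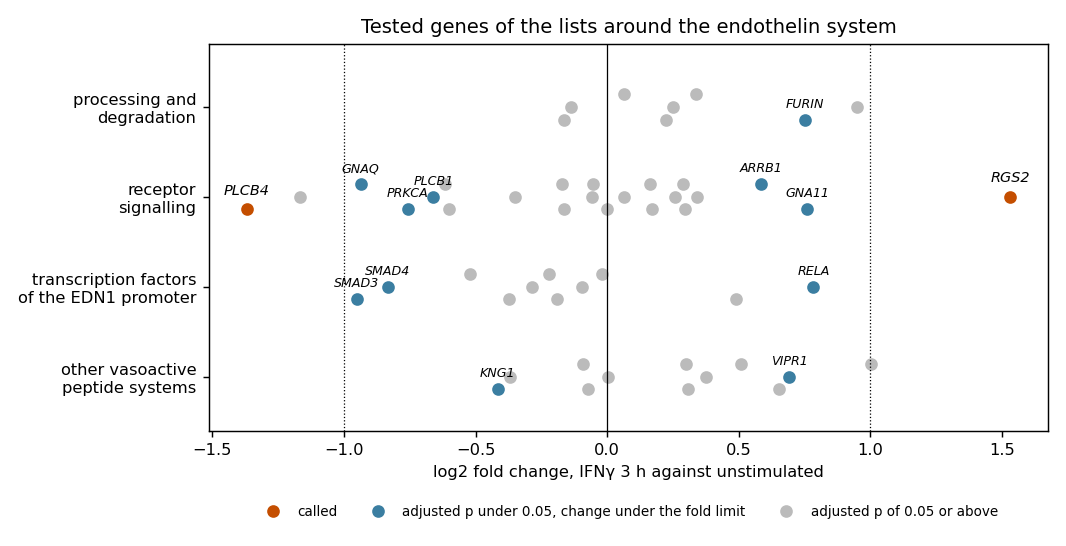
Log2 fold change (x axis, IFNγ 3 h against unstimulated, dotted lines at the fold limit of 1) of the tested genes in the 4 lists around the endothelin system, 1 point per gene, with the vertical offset within a list for legibility only. Of 54 genes, 2 were called (RGS2 at 1.53 and PLCB4 at -1.37), and 11 passed on the adjusted p alone with a smaller change (blue). Over all tested genes 7.28% were called, and 20.0%, the called ones included, passed on the adjusted p.

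The promoter windows of RefSeq on GRCh38.p14, from 250 bases before to 50 bases after each annotated start, held entries for 5 of the 7 members, EDN1, EDN2, EDNRA, EDNRB and ECE1, with 11 windows in all. They were searched on both strands for 2 short motifs of factors on the EDN1 promoter list. The GAS motif (interferon gamma activated site), TTCNNNGAA, was searched as well. It was in 1 of the 11 windows (of ECE1) and in 7.66% of all. The AP-1 motif TGANTCA was in 0 of the 11 windows and in 7.71% of all 35116 windows, and the core of the hypoxia response element, ACGTG, was in 4 of the 11 (windows of EDN1 and EDNRB) and in 21.4% of all. These are matches of exact letters in a fixed window, and binding was not measured. Variants with another base, such as TGACTAA in an EDN1 window, were not counted. The 0 matches therefore do not show that AP-1 sites are absent.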

How the data were processed

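RNA was made into libraries with the Illumina TruSeq RNA kit per the labels. The file deposited by the authors gives whole-number read counts per Ensembl gene in the 4 libraries, neither normalized nor pooled. The submitters' processing notes name HISAT 0.5.1 and HTSeq 0.6.1p1; the genome build and the handling of strand are not given in the sources used here. Counts were tested with edgeR 4.0.16 (R 4.3.3): quasi-likelihood fit, TMM scaling, default low-count filter, no block. The SE is the log2 fold change divided by the root of the F statistic. The fit was also run on simulated counts, drawn without a GC trend and without deviations shared by same-numbered libraries. Its outcome is not reported here, and it does not cover these features of the data. CPM used TMM-scaled library sizes, and lengths, GC content and GRCh37 coordinates came from GENCODE 44. Exact intervals and the 3-count floor cover counting error only. Alternatives used DESeq2 1.42.0, other scalings and filters, a replicate block, a GC and length correction, and each library left out. The members and gene lists were chosen with earlier results of these data known. All members were named by rule, with the 5 genes nearest EDN3 and genes near EDN3 with at least 10 counts. Of each list, the rule took up to 4 called genes per direction and the 2 most abundant uncalled tested genes. Other genes, among them those that passed on the adjusted p alone, NPPB, ZNF831 and PIEZO1P1, were named outside this rule with their values known. RAMP3, VIP, PECAM1 and S100B were not analysed here, and some items that the rule or lists cover are not reported here.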

Additional observations from a re-analysis of the deposited data

How the results depend on the processing

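Depth and the 2 libraries per condition set the limits here: 0 to 3 counts in a library are not told from absence. The number of genes called was 1079, 2963 with no fold change threshold, and 866 to 1684 with each library left out. Of the members, 1 was called, 0 with DESeq2 (no adjusted p for EDN3) and with at least 10 counts in every sample (EDN3 not tested), 3 with no fold change threshold, and 1 to 2 with each library left out. Of the pathway list genes, 2 were called, 1 with DESeq2, 1 with DESeq2 without independent filtering, 1 with the GC and length trend removed, also with the block, 13 with no fold change threshold, and 1 to 4 with each library left out. ECE2 reversed to -0.10 with the GC and length trend removed and to -0.091 with the block as well; the cause was not tested. The replicate block gave 1388 called genes, kept 1 member and 2 list genes called, and changed no call of a member, but on the adjusted p alone 4 of the 5 members passed with it, EDN1 included, in place of 3. Deviations of same-numbered libraries correlated (r = 0.415), but the labels do not say that a number marks a batch. In 64 of 68 comparisons of a member with an alternative, direction and call were the same; these leave out DESeq2 and the filter of at least 10 counts in every sample for EDN3, the called member, which had no adjusted p there.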

Other observations

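Genes that matched EDN3 in every library, with no more counts than EDN3 in both unstimulated libraries and at least as many in both IFNγ libraries, were sought after the values had been seen. Of the 37515 genes, STEAP4 and LINC01749 met this beside EDN3 itself. LINC01749, a long noncoding RNA, had 1 count in each unstimulated library and 224 and 143 counts after IFNγ.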
